A study of Mus musculus with 3 samples.

Results

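The integrin beta chains Itgb1 to Itgb8 were described in mouse regulatory T cells profiled by RNA-seq of polyadenylated RNA. The members were taken by gene symbol, and all 8 were found among 22457 genes. The primary cells came from adult mice, 4 months old, and the labels give bone marrow haematopoietic cells as their origin. The series holds 1 group of 3 libraries, numbered as technical replicates 1, 2 and 3 of biological replicate 1. No strain, genotype, treatment or sorting marker is given in the labels, the sex was not collected, and nothing in the sources used here says whether animals were pooled. SDs therefore measure the spread between these libraries, and p-values test for differences between them. Exact intervals cover counting error only. None of them says anything of the spread between animals.

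Integrins are adhesion receptors made of an alpha and a beta chain, and a cell can present only those pairs for which it makes both chains. The beta chain sets which alpha partners are possible, and its cytoplasmic tail binds talin and kindlin, the proteins that switch the receptor to its high-affinity state. In T cells these receptors hold the cell to antigen-presenting cells and to vessel walls and steer it into tissues. In regulatory T cells the pair of Itgav and Itgb8 is also known to release active TGF-beta from its latent form.

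Library totals ran from 2872350 to 3228215 counts. Levels are given as CPM, the count of a gene per 1000000 counts of its library, and levels are compared between genes as CPM per kb of coding sequence. Foxp3, Cd4 and Cd3e, which define the labelled cell type, were present at 149.8 ± 7.60, 551 ± 60.5 and 395 ± 13.4 CPM (SD, n = 3). All 7 regulatory T cell markers reached 1 CPM in every library. Markers of other cells were present too. The summed CPM of 7 B cell markers was 242, 306 and 396 in libraries 1, 2 and 3, that of 7 neutrophil markers 1.56, 78.4 and 9.40, and that of 5 erythroid markers 8.11, 134 and 116. In bulk RNA, fewer cells of a type and less RNA per cell cannot be told apart.

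Itgb2, Itgb7 and Itgb1 held most of the family's level. They made up 45.5 ± 2.75%, 34.1 ± 2.56% and 14.9 ± 1.32% of the summed beta chain level per coding kb (SD, n = 3). Itgb8 added 3.83 ± 0.193% and Itgb3 1.65 ± 0.0824%. Divided by exon length (11060 bases for Itgb8 against 2301 coding bases), these shares were 1.07% and 0.888%. Itgb2 and Itgb7 lay at 1 to 1.6 counts per coding base, where the median gene changed less with library depth than at lower values. What this does to the shares was not tested. Itgb5, Itgb4 and Itgb6 together lay close to the detection limit of this depth. At least 1 CPM in every library was reached by 6 of the 8 members, against 48.4% of all genes. At a stricter level of 5 CPM in every library 5 members remained.

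Itgb2 encodes CD18, the beta chain confined to leukocytes that pairs with the alpha L chain in LFA-1 and binds ICAM ligands. It had 3569, 3380 and 3065 counts in libraries 1, 2 and 3, or 1113, 1047 and 1067 CPM. It was the highest member in each library, and its libraries lay close together. Per coding kb the level was 466 ± 14.6 CPM (SD, n = 3), above 99.2% of genes with a known coding length. The gene lies on chromosome 10 at 77530252 to 77565708 on the plus strand (ENSMUSG00000000290, GRCm38, GENCODE M21 gene model), with a coding length of 2310 bases.

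Itgb7 encodes the beta chain that pairs with the products of Itga4 and Itgae, and these pairs are known for gut homing and for binding to epithelial E-cadherin. It had 2482, 3051 and 2347 counts, or 774, 945 and 817 CPM. Library 2 was the highest and the other libraries lay together below it. Per coding kb the level was 349.6 ± 36.8 CPM (SD, n = 3). The gene lies on chromosome 15 at 102215995 to 102231944 on the minus strand (ENSMUSG00000001281, coding length 2418 bases).

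Itgb1 encodes CD29, the chain shared by the VLA receptors for fibronectin, collagen, laminin and VCAM-1. It had 1219, 1305 and 907 counts, or 380, 404 and 316 CPM, and library 3 was the lowest. Per coding kb the level was 153 ± 19.1 CPM (SD, n = 3). The gene lies on chromosome 8 at 128685654 to 128733200 on the plus strand (ENSMUSG00000025809, coding length 2394 bases).

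Itgb8, Itgb3, Itgb5 and Itgb6 are known as partners of the alpha V chain, which Itgb1 can also bind. Among these 4 genes Itgb8 was the highest. It had 304, 291 and 247 counts, or 94.8, 90.1 and 86.0 CPM, and the 3 libraries lay close together. Per coding kb this was 39.2 ± 1.91 CPM (SD, n = 3). The gene lies on chromosome 12 at 119158022 to 119238802 on the minus strand (ENSMUSG00000025321, coding length 2301 bases). Itgb3, best known as the beta chain of the platelet fibrinogen receptor and of the vitronectin receptor, followed with 131, 139 and 104 counts. These equalled 40.9, 43.1 and 36.2 CPM, or 17.0 ± 1.48 CPM per coding kb (SD, n = 3). Itgb3 lies on chromosome 11 at 104608000 to 104670476 on the plus strand (ENSMUSG00000020689, coding length 2361 bases).

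Platelets are also known to carry Itgb3. None of 8 megakaryocyte and platelet markers reached 1 CPM in every library, and their summed level was 2.49, 2.17 and 1.74 CPM in libraries 1, 2 and 3. Gp1bb and Gp6 had no count, Pf4 had 2 counts in library 3, and Gp1ba had 7, 6 and 1 counts. Itga2b, the platelet partner of Itgb3, had 8, 18 and 7 counts. Itgav, its other partner, had 155, 124 and 121 counts. The part of platelet RNA in the Itgb3 counts was not tested.

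The remaining members were at or near the floor of 3 counts per library, which equals 0.936, 0.929 and 1.04 CPM. Itgb5, another partner of the alpha V chain, had 5, 4 and 4 counts. Pooled over the libraries, its 13 counts gave 1.40 CPM (95% exact binomial interval 0.744 to 2.39). Itgb4, the laminin-binding partner of Itga6 in epithelial hemidesmosomes, had 3, 2 and 0 counts, or 0.537 CPM pooled (0.174 to 1.25). Itgb6, the alpha V partner of epithelia, had 0, 1 and 0 counts, or 0.107 CPM pooled (0.00272 to 0.599). These intervals and floors cover counting error only, and the few counts do not show whether the genes were expressed. Of 6 epithelial markers Krt8, Krt5 and Cldn4 had no count, and the summed level was 18.4, 14.9 and 17.1 CPM, most of it Epcam at 13.6 ± 1.29 CPM (SD, n = 3).

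**Figure D1:**
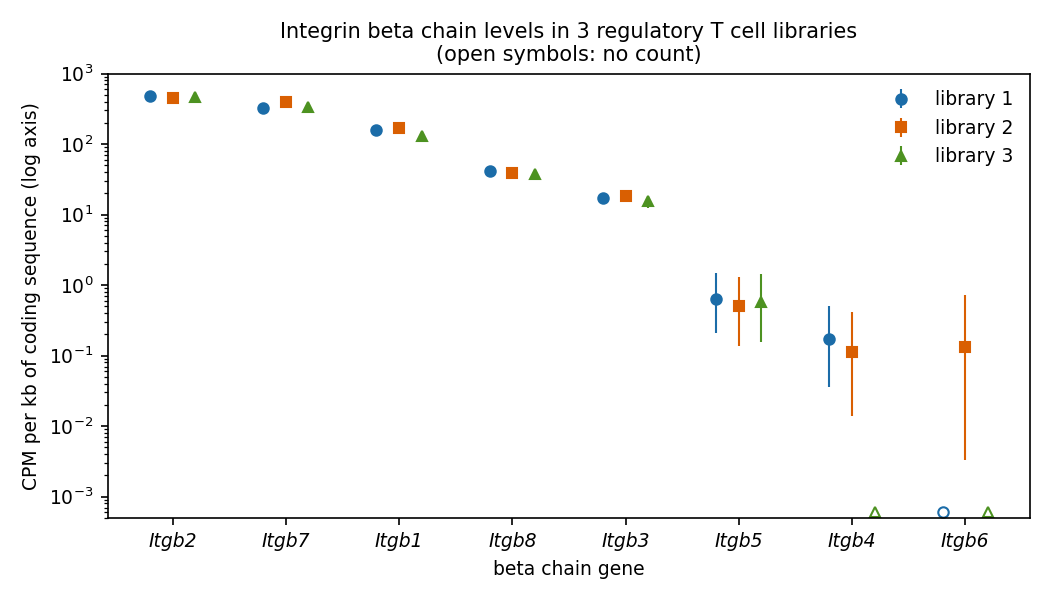
Level of each integrin beta chain in libraries 1, 2 and 3, as CPM per kb of coding sequence on a log axis, with 95% exact binomial intervals and open symbols where a library had no count. Itgb2, Itgb7 and Itgb1 lie between 132 and 482, Itgb8 and Itgb3 between 15.3 and 41.2, and Itgb5, Itgb4 and Itgb6 below 1.

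The order per coding kb was Itgb2, Itgb7, Itgb1, Itgb8, Itgb3, Itgb5, Itgb4 and Itgb6. For 6 of the 7 neighbouring pairs the libraries did not overlap. The lowest library of Itgb2 (453 CPM per coding kb) lay above the highest of Itgb7 (391), and the lowest of Itgb7 (320.1) lay above the highest of Itgb1 (169). Itgb4 and Itgb6 overlapped at 0. The order of these last genes was the other way round without library 1. The widest step was from Itgb3 to Itgb5, at 29.7-fold between the means. With 3 libraries the smallest p a sign test allows is 0.25, so the order carries no p-value.

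Ratios within a library need no scaling by the library total. They can still vary with depth, since genes with many counts per coding base changed less with it (below). What this does to the ratios was not tested. On the log2 scale and per coding kb, Itgb7 lay below Itgb2 by -0.59, -0.21 and -0.45 in libraries 1, 2 and 3. Itgb7 exceeded Itgb1 by 1.01, 1.21 and 1.36. Itgb1 against Itgb2 stood at -1.61 ± 0.19, Itgb8 against Itgb7 at -3.15 ± 0.18 and Itgb3 against Itgb1 at -3.17 ± 0.06 (SD, n = 3). Each of these ratios had the same sign in every library. Divided by exon length in place of coding length, Itgb7 against Itgb2 was -0.21 and Itgb8 against Itgb7 was -5.22, so that these distances depend on the length used.

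Promoter windows from RefSeq (GRCm38.p6) were matched for 5 of the 8 members, Itgb1, Itgb5, Itgb6, Itgb7 and Itgb8. They were looked at for CpG sites, whose density separates broad promoters of widely used genes from sparser ones. The 250 bases before the start site of 3 members are shown because they pair different levels with different CpG content. They are written 5′ to 3′ on the gene's strand, with CpG sites in capitals. The windows lie at chr8:128685404-128685653 on the plus strand for Itgb1, chr15:102231936-102232185 on the minus strand for Itgb7 and chr16:33829415-33829664 on the plus strand for Itgb5.
Itgb1: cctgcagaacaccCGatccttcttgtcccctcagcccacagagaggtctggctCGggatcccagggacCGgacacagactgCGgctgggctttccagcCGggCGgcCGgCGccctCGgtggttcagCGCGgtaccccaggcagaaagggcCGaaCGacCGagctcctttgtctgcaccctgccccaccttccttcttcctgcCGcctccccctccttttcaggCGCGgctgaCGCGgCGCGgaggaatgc
Itgb7: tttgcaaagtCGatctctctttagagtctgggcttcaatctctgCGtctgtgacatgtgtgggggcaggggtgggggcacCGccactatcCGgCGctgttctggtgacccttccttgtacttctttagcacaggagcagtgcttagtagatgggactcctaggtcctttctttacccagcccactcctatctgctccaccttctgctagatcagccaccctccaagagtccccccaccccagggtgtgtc
Itgb5: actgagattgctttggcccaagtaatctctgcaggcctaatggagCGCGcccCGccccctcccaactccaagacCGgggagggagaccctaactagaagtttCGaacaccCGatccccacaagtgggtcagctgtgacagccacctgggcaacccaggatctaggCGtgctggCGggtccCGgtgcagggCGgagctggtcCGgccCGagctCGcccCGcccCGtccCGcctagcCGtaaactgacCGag
The Itgb1 window held 21 CpG sites and that of Itgb7 held 5, while the median over 32841 mouse windows of this length was 6. Itgb5, with 13 counts in all, had 18 sites, and Itgb8 had 12. Itgb6, with 1 count in all, had 2 windows, of 11 and 3 sites. Itgb7 thus had fewer CpG sites than Itgb5, and the CpG count did not follow the order of the levels among these genes. The letters GGGCGG, the core bound by Sp factors, were found on either strand in the Itgb1 and Itgb5 windows and in 32.7% of all windows. The core letters TGTGGT of Runx factors and TATAAA were searched on both strands and are not in these 3 windows. They occur in 14.0% and 12.4% of all windows, so their absence from 3 windows says little. The ETS cores CCGGAAG and GAGGAAG (6.91% and 10.6% of all windows) are not in these 3 either. GAGGAAG is in the Itgb6 window of 3 sites.

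The alpha chains were read as the possible partners. Of 18 alpha chain genes 12 reached 1 CPM in every library, against 48.4% of all genes, with a median of 1.46 CPM per coding kb beside 28.1 for the beta chains and 1.44 for all genes. The summed alpha level per coding kb was 713, 611 and 615 CPM in libraries 1, 2 and 3. The summed beta level was higher in each library, at 1020.0, 1071 and 985. Without length the sums were 2420, 2069 and 2075 CPM for the alpha chains and 2405, 2532 and 2324 CPM for the beta chains. The alpha sum was then the higher one in library 1. Only transcripts were measured, so nothing is known here of assembled receptors.

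For Itgb2, Itgal was the main partner. It encodes the alpha chain of LFA-1 and had 3119, 2700 and 2196 counts, or 238 ± 29.3 CPM per coding kb (SD, n = 3). Itgam, the myeloid partner, followed with 21, 10 and 26 counts, and Itgax and Itgad had 8 or fewer counts in each library. Itgal lay below Itgb2 by -0.84, -0.97 and -1.12 on the log2 scale in libraries 1, 2 and 3. Both partners of Itgb7 were abundant. Itga4 had 2194, 1978 and 1832 counts, or 208 ± 11.7 CPM per coding kb, and Itgae, which encodes CD103, had 1715, 1329 and 1272 counts, or 132 ± 18.3. Each stood below Itgb7 in every library, by -0.74 ± 0.23 for Itga4 and -1.41 ± 0.33 for Itgae on the log2 scale (SD, n = 3). With exon length the first of these was -2.72.

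Itgb1 has the widest choice of partners, and 7 of its 12 reached 1 CPM in every library, against 48.4% of all genes. Itga4, shared with Itgb7, was the highest, and Itga6, the laminin receptor chain shared with Itgb4, came next at 34.9 ± 1.52 CPM per coding kb (SD, n = 3). Itga8, the chain that binds nephronectin, had no count. For Itgb8 and Itgb3 the shared partner Itgav stood at 13.7 ± 1.60 CPM per coding kb, below Itgb8 by -1.52 ± 0.14 on the log2 scale (SD, n = 3). Against Itgb3 its place depended on the scale: the mean of Itgav was lower per coding kb (13.7 against 17.0) and higher without length (43.0 against 40.0 CPM).

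**Figure D2:**
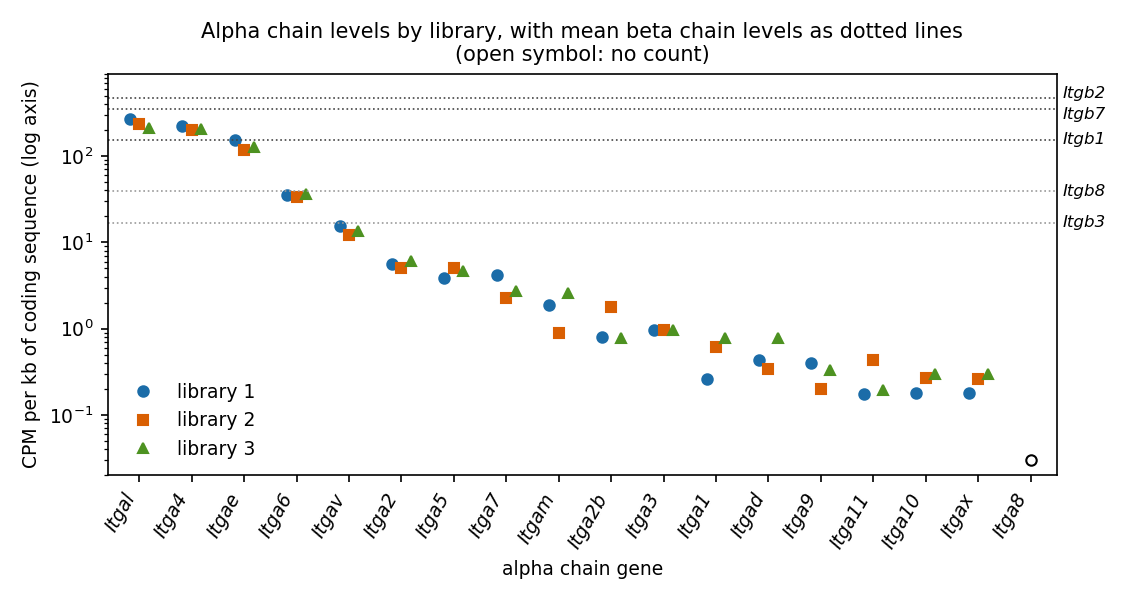
Levels of 18 alpha chain genes in libraries 1, 2 and 3, as CPM per kb of coding sequence on a log axis, with the mean levels of 5 beta chains as dotted lines and an open symbol for the gene without a count. Itgal, Itga4 and Itgae lie between Itgb8 and Itgb7, and Itga6 lies just below the line of Itgb8.

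Transcripts were then read for proteins that bind the beta tail or drive integrin activation. The 1 CPM level was reached in every library by 16 of 19 genes, against 48.4% of all genes, with a median of 127 CPM per coding kb. Skap1 and Fyb, adaptors that bring the Rap1 effector complex to the membrane, stood at 599 ± 24.6 and 387 ± 13.4 CPM per coding kb. Fermt3, the haematopoietic kindlin, stood at 342 ± 25.8 and Rassf5, the Rap1 effector RAPL, at 233 ± 18.2 (SD, n = 3). The paralogues of other tissues were near or at 0. Fermt1 had 1, 0 and 1 counts, Fermt2 had none, and Tln2 had 0, 0 and 2 counts, whereas Tln1, which encodes talin, had 3210, 3993 and 2917.

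In adhesion signalling 11 of 14 genes reached that level, against 48.4% of all genes, with a median of 21.5 CPM per coding kb. Ilk, the scaffold pseudokinase that joins beta tails to actin, led them at 177 ± 8.56 CPM per coding kb. The focal adhesion kinase relative Ptk2b followed at 143 ± 4.53, the ILK partner Lims1 at 132 ± 7.76 and Parvg, the haematopoietic parvin, at 114 ± 9.98 (SD, n = 3). Parva and Parvb, the parvins of other tissues, had no count, and Ptk2 itself had 22, 15 and 14 counts.

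Genes that handle latent TGF-beta were set beside Itgb8. Nrros and Lrrc32 encode surface proteins that tether the latent form, Lrrc32 being GARP of regulatory T cells. They stood at 105 ± 7.42 and 103 ± 12.4 CPM per coding kb, both above Itgb8 in each library. Furin, the protease that processes the precursor, stood at 8.24 ± 1.10 and Tgfb1, the ligand, at 7.46 ± 3.35, both below Itgb8 (SD, n = 3). The matrix tethers Ltbp1 and Ltbp3 had 9 counts and 1 count in all. In all, 4 of these 6 genes reached 1 CPM in each library, against 48.4% of all genes, and the median was 7.85 CPM per coding kb.

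Of the integrin ligands, 6 of 11 genes reached 1 CPM in each library, close to the 48.4% of all genes. The median was 0.775 CPM per coding kb, below the 1.44 of all genes. The LFA-1 ligands Icam2 and Icam1 stood at 209 ± 32.8 and 126 ± 8.12 CPM per coding kb (SD, n = 3). Vcam1, a ligand of the Itga4 pairs, stood at 10.9 ± 1.31, and Icam4 at 6.11 ± 1.15. Madcam1, the gut ligand of the pair of Itga4 and Itgb7, had 0, 8 and 1 counts, and Cdh1, the E-cadherin bound by the pair of Itgae and Itgb7, had 4, 3 and 10.

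The libraries were then compared with each other beyond counting error. In scaled counts Itgb7 stood 1.19-fold above library 1 in library 2, with an exact binomial 95% interval of 1.13 to 1.26. Itgb1 stood 1.25-fold above library 3 in library 2 (1.15 to 1.36). Itgb2 stood 1.09-fold above library 2 in library 1 (1.04 to 1.14). Each passed a chi-square test against Poisson expectation (Benjamini-Hochberg adjusted p = 9.12e-09, 8.94e-06 and 0.00883). Itgb8 and Itgb3 did not pass (adjusted p = 0.601 and 0.619, same test). Their highest and lowest libraries stood at 1.11-fold (0.932 to 1.31) and 1.16-fold (0.895 to 1.51), so differences of the size seen in Itgb1 were not excluded by these intervals for either gene. Itgb4, Itgb5 and Itgb6 had a mean count under 10 and were not tested.

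These calls follow the background. Of the 5 members tested 3 passed, against 27.6% of 10282 genes, but the share rises with the count. It was 59.3% among genes with a mean count of 1000 or more, where Itgb1, Itgb2 and Itgb7 lie, and 32.8% from 100 to 1000, where Itgb3 and Itgb8 lie. Of the called members 2 peaked in library 2 (8.71% of all genes tested), 1 in library 1 (11.1%) and none in library 3 (7.75%). In a negative binomial model with the 12.5% coefficient of variation common to all genes, no member passed, none had an unadjusted p under 0.05, and 0.904% of all genes passed.

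Each of the 3 calls rested on particular libraries. Calls over all genes also fell, from 2836 to 1691, 962 and 2015 without library 1, 2 and 3. Itgb1 was no longer called without library 3 (chi-square test, Benjamini-Hochberg adjusted p = 0.586), and its log2 difference was 0.05 in place of 0.32. Itgb7 was no longer called without library 2 (adjusted p = 0.280), with 0.07 in place of 0.25. Itgb2 was not called without library 1 or without library 2 (adjusted p = 0.262 and 0.261), nor with plain totals as library sizes (0.0962). The summed neutrophil and erythroid markers were highest in library 2, as was Itgb7. Itgb1 was nominally highest there too, but libraries 1 and 2 differed only within counting error (library 2 to 1 interval 0.958 to 1.12). The neutrophil and erythroid sums were lower in library 1 than in library 3 (1.56 against 9.40 and 8.11 against 116 CPM). Itgb1 was instead higher in library 1 than in library 3 (380 against 316 CPM). The summed B cell markers were highest in library 3, where Itgb1 was lowest. Single markers did not all follow the sums. Hba-a1 was highest in library 3 (0, 26.6 and 28.9 CPM), Cd22 in library 1 (53.6, 51.1 and 51.9) and Blk in library 2 (6.86, 9.29 and 5.92). The part of other cells in these differences was not tested.

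**Figure D3:**
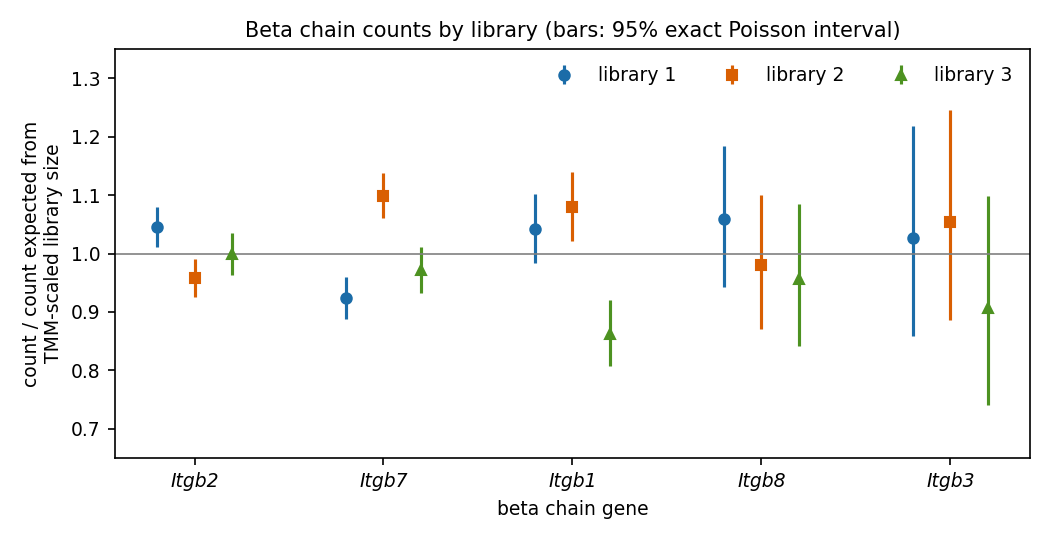
Count of each tested beta chain in libraries 1, 2 and 3, divided by the count expected from the TMM-scaled library size, with 95% exact Poisson intervals. Itgb7 is high in library 2, Itgb1 is low in library 3, and the intervals of Itgb8 and Itgb3 overlap across the libraries.

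The main alpha partners were each highest in library 1. Itgal stood there 1.28-fold above library 3, with an exact binomial 95% interval of 1.21 to 1.35. Over library 2, Itga4 stood 1.15-fold (1.08 to 1.22) and Itgae 1.33-fold higher (1.24 to 1.43). All passed the chi-square test (Benjamini-Hochberg adjusted p = 1.71e-17, 0.000686 and 4.08e-13). Library 1 was also the highest for Itgb2, the partner of Itgal, but the lowest for Itgb7, the partner of Itga4 and Itgae. For Itgb2 and Itgb7, though, libraries 1 and 3 differed only within counting error (library 1 to 3 intervals 0.997 to 1.10 and 0.898 to 1.01). The ratio of Itgae to Itgb7 stood at -1.07, -1.73 and -1.42 on the log2 scale in libraries 1, 2 and 3. Its SD was 0.33 against 0.17 for Itgb7 to Itgb1. Of 10 alpha chains tested 4 passed, 3 highest in library 1 and Itgam highest in library 3 (2.99-fold between its extremes, on few counts). Over all genes tested 27.6% passed, 11.1% highest in library 1 and 7.75% in library 3, and at mean counts of 1000 or more, where Itgal, Itga4 and Itgae lie, 59.3% passed. Without library 1 the alpha chain count of 4 was 1, without library 2 it was 2, and in the negative binomial model it was 0. Over all genes 2836 passed, and 1691, 962 and 93 did under these settings.

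Among the genes of tail binding and activation 9 of 16 tested passed, of which 2 peaked in library 1, 3 in library 2 and 4 in library 3. The share over all genes tested was 27.6%, with 32.8% at mean counts from 100 to 1000 and 59.3% above, the range of most of this list. Without library 2 the count of 9 was 2. Calls over all genes were also fewer, at 1691, 962 and 2015 without library 1, 2 and 3 in place of 2836. Tln1 stood 1.20-fold above library 1 in library 2 (1.15 to 1.26), with a Benjamini-Hochberg adjusted p of 8.86e-16 in the chi-square test. Library 2 was the highest for Itgb7 too. For both genes libraries 1 and 3 differed only within counting error (library 1 to 3 intervals 0.940 to 1.04 for Tln1 and 0.898 to 1.01 for Itgb7). No gene of this list that passed differed by 1.5-fold or more. In adhesion signalling 2 of 9 tested passed, beside the same 27.6% of all genes, and Lyn, a kinase of B and myeloid cells, stood 1.92-fold above library 1 in library 3 (1.31 to 2.85), where the summed B cell markers were also highest. The monocyte or macrophage markers (39.6, 27.3 and 56.7 CPM), the dendritic cell markers (9.04, 11.5 and 16.0) and the NK cell markers (34.6, 39.96 and 55.0) also summed highest there. Single markers did not all follow these sums. Of the NK cell markers Gzma was highest in library 3 (5.30, 6.51 and 20.2 CPM), whereas Klrb1c was lowest there (3.12, 3.72 and 2.44). Of the dendritic cell markers Flt3 was highest there (2.49, 2.48 and 7.66) and Zbtb46 lowest (3.12, 5.89 and 1.39). The part of these cell types in the Lyn difference was not tested. The count of 2 was 1 without library 2 or without library 3. Of the latent TGF-beta genes 3 of 4 tested passed, beside 27.6% of all genes, and none without library 2. The share was 32.8% at the mean counts of Nrros and Lrrc32, and 15.2% at those of Furin and Tgfb1. Among the tested genes of this list Tgfb1, with 40, 15 and 26 counts, had the widest spread, at 2.75-fold between libraries 1 and 2. Of the ligand genes 1 of 5 tested passed, beside 27.6% of all genes, Icam2, and none without library 1. The TGF-beta and ligand lists are too short to be read against these shares. In the negative binomial model no gene of these 4 lists passed.

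Counts per base of coding sequence were examined because the highest of them changed less with library depth than other genes did. The highest value among genes with at least 1000 coding bases was 2.14 counts per coding base. Itgb2 stood at 1.45, Itgb7 at 1.09, Itgb1 at 0.478, Itgb8 at 0.122 and Itgb3 at 0.0528. Library 3 held fewer counts than library 1, by -0.16 as the log2 ratio of their totals. For single genes, unscaled, the median of this ratio was -0.07 among 257 genes from 1 to 1.6 counts per coding base, -0.17 among 2059 genes from 0.2 to 0.5, and -0.22 among 4853 genes under 0.1. Itgb7 stood at -0.08 and Itgb2 at -0.22 beside the first of these, Itgb1 at -0.43 beside the second and Itgb3 at -0.33 beside the third. Itgb8 stood at -0.30, beside a median of -0.19 among 1905 genes from 0.1 to 0.2. What this does to the levels, shares and ratios of Itgb2 and Itgb7 relative to the lower members and the alpha chains was not tested. The chi-square test takes counts to scale with library size. What this does to the calls of genes with many counts per coding base was not tested either. Among them are Itgb2, Itgb7, and Skap1 and Fyb (1.86 and 1.20), which passed with library 3 highest.

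**Figure D4:**
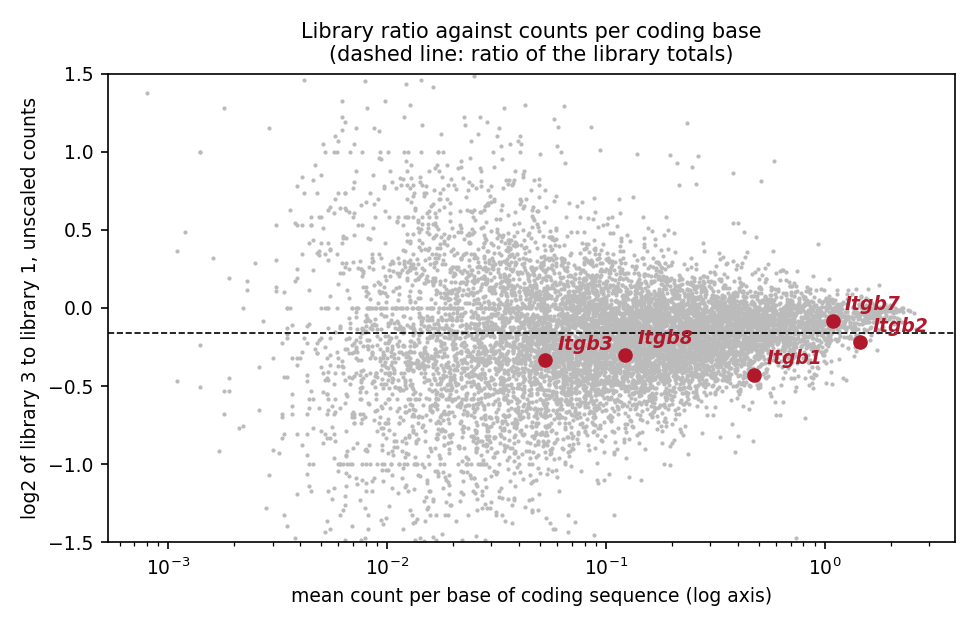
Log2 ratio of library 3 to library 1 in unscaled counts against the mean count per coding base (log axis), with each of 10026 genes as a grey point and the 5 tested beta chains in red. The vertical axis ends at 1.5 in both directions and leaves out 123 genes. Itgb2 and Itgb7 lie in the narrow right end. Itgb7 lies above the dashed ratio of the totals, and Itgb1, Itgb2, Itgb3 and Itgb8 lie below it.

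Shared sequence was checked because reads that match several genes can be lost or split. No stretch of 36 bases in the annotated transcripts of Itgb1, Itgb7 or Itgb8 occurs in a transcript of another gene in GENCODE M21. For Itgb2, 62 of 3183 stretches (1.95%) occur in the processed pseudogene Gm14699. For Itgb5, 278 of 3611 (7.70%) occur in the processed pseudogene Gm38317, so that its few counts are uncertain. Neither pseudogene is, by its identifier, among the genes counted in these libraries. Itgb4 shares 380 of 7175 stretches (5.30%) with 15 genes and is overlapped on the opposite strand by B230344G16Rik, at 115988052 to 115993715 on chromosome 11. Itgb3 and Itgb6 shared 0.225% and 0.280%. No other member is overlapped by an annotated gene. Neither read length nor the strand setting of the counting is stated in the sources used here.

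The genes with the most similar values were found by the distance of log2 CPM per coding kb over the 3 libraries, among 11928 genes with a count in each library. They were Rnf167 and Clk1 for Itgb2, Frg1 and Sec11c for Itgb7, and Smim7 and Fundc1 for Itgb1. For Itgb8 they were Mllt11 and Upf2, and for Itgb3 Phtf1 and Rrbp1. The distances ran from 0.0357 to 0.0968 on the log2 scale. With 3 technical replicates this measure compares mainly the level.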

How the data were processed

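The deposited files hold whole-number counts per gene, which the authors quantified on mm10 with GENCODE M4, per the file descriptions deposited with the libraries. How reads were aligned, counted by strand or cleared of duplicates is not given in the sources used here. Of 22457 identifiers 22195 matched GENCODE M21 of the same assembly (GRCm38) after the version was removed. The 262 others held 0.117% of the counts. Coding length is the longest coding sequence of a gene.

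Differences between libraries were tested with a chi-square test per gene against Poisson expectation (2 degrees of freedom, mean count of at least 10), with Benjamini-Hochberg adjustment over all 10282 genes at 0.05. Totals were multiplied by TMM factors of 0.990, 1.02 and 0.993 (edgeR 4.0.16, R 4.3.3). There is 1 group, so no contrast between groups could be tested. Alternatives were plain totals, DESeq2 1.42.0 size factors, other filters and thresholds, a negative binomial model, exon length or no length, an added count, thinning, and leaving out each library. Recounts of the gene lists under some of these were added after the data were seen. Members, gene lists and tests were chosen with earlier results of these data known. The naming rule took all members, the 2 highest alpha partners of each chain, the genes of the ratios, the 4 highest genes of the other lists, list genes that passed with a 1.5-fold difference or more, and the 2 nearest genes of members with a mean count of at least 100. Further genes were named with their values known. Features of the proteins, planned at the outset, are not analysed here. Tests ran in scipy 1.17.1 under Python 3.11.15, and figures in matplotlib 3.10.9.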

Additional observations from a re-analysis of the deposited data

How the results depend on the processing

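Of 5 members tested, 3 differed between the libraries. The count was 2 with plain totals and 0 with the negative binomial model, where no member had an unadjusted p under 0.05, and 1 to 2 when each library was left out in turn. Over all genes 2836 passed, 93 with the negative binomial model, 1700 at an adjusted p of 0.01, and 962 to 2015 when each library was left out. The negative binomial dispersion was estimated from the same 3 libraries. The count of members detected was 5 or 6 under every alternative run. The order of the members was the same under the other alternatives run, and without replicate 1 Itgb6 passed Itgb4, with 6 separate neighbouring pairs as in the full set (6 to 6 over the left-out libraries).

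Division by exon length in place of coding length moved the share of the beta chain sum to 11.8% for Itgb1, 0.888% for Itgb3, 39.9% for Itgb7 and 1.07% for Itgb8. Without length the share of Itgb4 was 0.0211%. With exon length the log2 ratios were -1.98 (Itgb1 to Itgb2), -0.21 (Itgb7 to Itgb2), 1.77 (Itgb7 to Itgb1), -5.22 (Itgb8 to Itgb7), -3.72 (Itgb3 to Itgb1), -1.44 (Itgal to Itgb2), -2.72 (Itga4 to Itgb7) and -1.04 (Itgav to Itgb8). Without length they were -0.33 (Itgal to Itgb2), -0.39 (Itga4 to Itgb7), -0.87 (Itgae to Itgb7) and -1.08 (Itgav to Itgb8). The change of length itself makes these shifts. With 1 count added, Itgb5 to Itgb1 was -7.77. None of the planned log2 ratios changed sign under the alternatives run. Itgav against Itgb3, whose order changed without length, was not among them. No paired analysis was possible because the series has 1 group. Depth limits Itgb4, Itgb5 and Itgb6, which had 5, 13 and 1 counts in all.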
